A study of Homo sapiens with 4 samples.

Results

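The 46 genes described here encode proteins of the centrosome and of the centriolar satellites, and the measurement is the circular RNA made from them. They were chosen by name, from a list of centrosome proteins, and their circles were selected on the gene annotation that the deposited table gives for each back splice, leaving out circles typed as antisense. No level and no fold change entered that selection as a limit, but the list was drawn up with the knockdown comparison already known, so counts of genes are given as descriptions of the list. Of the 46 genes, 45 had at least 1 count and 43 had the 10 counts needed for a test, out of 8379 host genes tested in all. Their 1875 circles with a count stood among 190152 in the series and held 30695 counts, which is 1.80% of the total. CEP131, a satellite protein, was named by no circle counted here, and CEP68 and ODF2 had 3 and 4 counts.

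The centrosome is the main microtubule-organizing centre of animal cells. It consists of a pair of centrioles embedded in pericentriolar material, a protein scaffold that recruits the gamma-tubulin complexes from which microtubules grow, while satellites are granules around it that carry its components and a mature centriole can serve as the base of a cilium. A circular RNA forms when the end of a downstream exon is spliced back to the start of an upstream exon, so a gene with many exons can give many circles that share an acceptor (the start of the upstream exon) or a donor (the end of the downstream exon). HNRNPL is an RNA-binding protein that binds CA-rich sequence and regulates splicing, including back-splicing.

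Circular RNA was read on nanopores after reverse transcription of total RNA with Induro, an enzyme that can copy a circle repeatedly. The samples were MDA-MB-468 cells, an established triple-negative breast cancer line with epithelial and basal features, in a radioresistant derivative that had been given 50 Gy in all, and every library, controls included, came from that derivative. The comparison asks which circles depend on HNRNPL. The control group held 2 libraries with a control hairpin (shCtrl, genotype given as wild type) and the knockdown group 2 libraries with a stable hairpin against HNRNPL, of which 1 sequence is named. Circles of HNRNPL itself were not analysed here, so the knockdown rests on the labels. The controls held 472428 (replicate 1) and 556578 counts (replicate 2), and the knockdowns held 282737 and 390547. A gene with 0 counts in a library could still have had up to 3, which is 0.635, 0.539, 1.06 and 0.768 per 100000 counts in the same order, for counting error alone. Levels are given as counts per 100000 counts of the library. They are not scaled for length, so they compare libraries and not genes, and fewer cells, less host transcript and less back-splicing cannot be told apart in them.

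Control replicate 1 stood apart from the other libraries. Exon circles took 91.5% of the counts of the centrosome genes in it, against 96.2% in control replicate 2 and 96.1% in each knockdown replicate. In the whole series these shares were 70.9%, 84.9%, 85.7% and 85.6%. Back splices at the standard AG and GT signals, read with no offset, took 82.4% and 88.4% of the centrosome gene counts in control replicates 1 and 2, and 87.8% and 89.2% in the knockdown replicates. The part of this library in the results was not tested, and a printed log2 fold change that it moved by over 1.5 times has the value without it beside it. Of 7 genes that mark the line, 5 had circle counts, among them EGFR and EPCAM, while KRT17 and KRT18 were at 0. Their summed level was 36.0 and 18.7 per 100000 in controls, against 12.7 and 12.0 in knockdowns. EGFR alone had 24.3 and 9.34 in controls, against 4.24 and 5.38 in knockdowns. EPCAM had 7.41 and 6.83, against 5.31 and 5.12, and CDH1 overlapped between groups. All 8 markers of blood, stromal, endothelial, liver and glial cells were at 0. The part of the lower line marker level in the results was not tested.

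The start regions of 5 members are printed to show the DNA from which these host transcripts arise. CEP70 was the member that passed the test of host genes, CEP290, CEP162 and SSX2IP had the next smallest p-values, and CEP192 had the most counts. Each sequence is the 250 bases before a RefSeq start in GRCh38.p14, 5′ to 3′ on the strand of the gene. The SSX2IP window lies inside the RefSeq span of its gene, chr1:84643706-84690745, so it precedes a start within that span. The other windows adjoin the spans of their genes. Capitals mark 3 motifs that were searched on both strands: CCAAT (the CCAAT box, found in 32.0% of all 35116 such windows), GGGCGG (the GC box, 42.6%) and TTTGAA (the core of the cell cycle gene homology region, 13.3%). The windows are chr3:138594261-138594510 (CEP70, minus strand), chr12:88142089-88142338 (CEP290, minus strand), chr6:84227644-84227893 (CEP162, minus strand), chr1:84690462-84690711 (SSX2IP, minus strand) and chr18:12991112-12991361 (CEP192, plus strand).
CEP70: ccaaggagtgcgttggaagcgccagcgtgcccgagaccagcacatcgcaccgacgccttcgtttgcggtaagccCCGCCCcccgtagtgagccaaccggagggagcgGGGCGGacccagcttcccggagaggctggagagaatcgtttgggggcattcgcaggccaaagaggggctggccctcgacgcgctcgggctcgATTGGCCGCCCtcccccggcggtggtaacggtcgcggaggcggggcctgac
CEP290: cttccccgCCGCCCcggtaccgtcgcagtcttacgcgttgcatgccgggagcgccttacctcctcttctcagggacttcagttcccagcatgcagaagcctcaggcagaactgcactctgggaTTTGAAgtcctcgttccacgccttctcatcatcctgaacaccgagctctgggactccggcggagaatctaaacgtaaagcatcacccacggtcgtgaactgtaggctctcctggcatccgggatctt
CEP162: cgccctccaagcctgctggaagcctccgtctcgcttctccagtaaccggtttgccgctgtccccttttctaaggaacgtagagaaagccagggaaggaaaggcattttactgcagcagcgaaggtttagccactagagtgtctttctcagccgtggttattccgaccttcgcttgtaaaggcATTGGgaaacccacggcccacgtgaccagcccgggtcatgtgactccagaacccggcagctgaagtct
SSX2IP: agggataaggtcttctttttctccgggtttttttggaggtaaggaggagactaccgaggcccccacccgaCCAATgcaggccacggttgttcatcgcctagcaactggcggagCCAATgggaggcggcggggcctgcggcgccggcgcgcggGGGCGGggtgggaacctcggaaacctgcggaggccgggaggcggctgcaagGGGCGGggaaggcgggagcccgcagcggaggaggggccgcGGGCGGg
CEP192: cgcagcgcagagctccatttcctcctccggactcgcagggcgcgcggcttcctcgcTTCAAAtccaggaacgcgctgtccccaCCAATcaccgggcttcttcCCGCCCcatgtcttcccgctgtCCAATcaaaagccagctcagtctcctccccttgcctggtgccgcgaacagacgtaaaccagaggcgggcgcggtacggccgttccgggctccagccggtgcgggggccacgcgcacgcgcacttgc
The CEP70 window held 1 CCAAT box and 3 GC boxes, with a CCAAT box and a GC box end to end on the reverse strand. The CEP290 window held 1 GC box and 1 TTTGAA, the CEP162 window 1 CCAAT box, and the SSX2IP window 2 CCAAT boxes and 3 GC boxes. The CEP192 window held 2 CCAAT boxes, 1 GC box and 1 TTTGAA. RefSeq windows were matched for 42 of the 46 genes, and of their 58 windows 44.8% held CCAAT, 63.8% GGGCGG and 15.5% TTTGAA. A match is a run of letters and not a shown site, an absent match says only that the letters are not in this window, and circle counts do not separate the start of a transcript from its splicing, whose parts were not tested.

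After HNRNPL knockdown, circular RNA of CEP70 rose, and CEP70 was the 1 gene of 43 tested with an adjusted p under 0.05 over all host genes (edgeR, quasi-likelihood test), where 37 of 8379 (0.442%) had one. By the unadjusted p, 10 of the 43 genes lay below 0.05 with a higher level in knockdowns (7.58% of all host genes did) and 4 with a lower level (6.19% of all host genes). The 10 were CEP70, CEP290, CEP162, SSX2IP, CEP126, CNTLN, AKAP9, CEP295, CEP135 and CEP57, and the 4 were CEP78, CEP164, CEP43 and CEP97. In 18 of the 43 genes both knockdown libraries lay above both controls, against 15.3% of all host genes, and in 12 both lay below, against 36.7%. The median log2 fold change, knockdown over control, was 0.46 over the 43 genes and -0.26 over all host genes. Scaling by library size in place of TMM moved these medians to 0.17 and -0.58. Leaving out control replicate 1 moved them to 0.30 and 0.018, so the median of all host genes changed sign. These shares describe a list chosen with results known. Circles that also name a gene outside the list numbered 132 and held 3.10% of the counts. The share was larger in several genes, among them CEP290 (16.2%), CEP295 (18.8%), SDCCAG8 (23.8%) and CSPP1 (27.5%). It was 100% in CEP43 and CEP63.

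**Figure D1:**
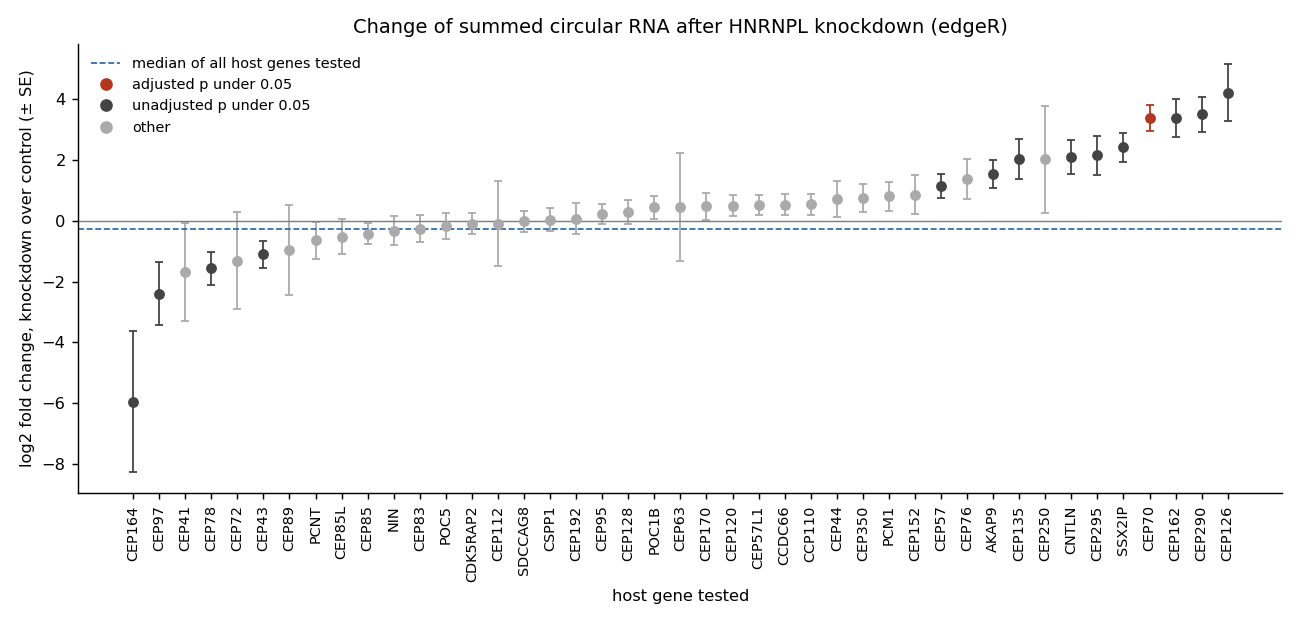
Log2 fold change (knockdown over control, edgeR with TMM scaling) of the summed circular RNA of each of the 43 host genes tested, with its standard error as bars. CEP70 at 3.39 is the gene with an adjusted p under 0.05. The dashed line is the median of all host genes at -0.26, which was 0.018 without control replicate 1. The widest bars belong to genes with few counts, among them CEP164. Its fitted value rests on 0 counts in both knockdown libraries and is no bound.

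The spread between the controls was wide for these genes and narrow between the knockdowns. Over the 36 genes with at least 40 counts, the median absolute log2 difference between replicates was 0.63 in controls and 0.18 in knockdowns, and over all 4764 such host genes it was 0.60 and 0.29. In all 10 genes with a higher level and an unadjusted p under 0.05, control replicate 1 lay below control replicate 2, and this was so in 26 of the 43 genes tested. With at least 40 counts, it was so in 66.7% of the 36 centrosome genes and in 45.3% of the 4764 host genes. Without control replicate 1, 16 of 38 genes tested passed the adjusted threshold, 12 of them higher, where 1672 of 6658 host genes (25.1%) passed. Without either knockdown replicate in turn none of these genes passed in edgeR (7 and 8 lay below an unadjusted p of 0.05), and no host gene in the series did, of 8064 and 7897 tested. DESeq2 on all 4 libraries called 7 of the 43, all higher, and 184 of all host genes (2.2%).

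Among the 6 genes of the pericentriolar scaffold, CEP70 and AKAP9 were higher in both knockdown libraries than in both controls, and CEP192, PCNT, CDK5RAP2 and CEP85L were lower in both (15.3% of all host genes were higher in this way and 36.7% lower). CEP70 is a coiled-coil protein of the centrosome that interacts with gamma-tubulin, and its gene lies at chr3:138494344-138594260. It had 42 and 74 counts with the control hairpin, against 247 and 405 after knockdown, or 8.89, 13.3, 87.4 and 104 per 100000. The knockdown libraries were both far above both controls, and each pair lay close together. The mean was 11.1 ± 3.12 in controls and 95.5 ± 11.6 in knockdowns (SD, n = 2 each), a ratio of 8.61. The log2 fold change was 3.39 ± 0.43 (SE; adjusted p = 0.0388 in edgeR). Leaving out control replicate 1 gave 3.09 and leaving out control replicate 2 gave 4.00. The call was lost without knockdown replicate 1 or 2 and under the newer dispersion method of edgeR, fits in which no host gene in the series passed, while the log2 fold change was 3.56, 3.24 and 3.39.

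Most CEP70 counts came from circles that share an end. The most counted circle, chr3:138570318-138572984, was 522 nt long with 4 exons and had 4 and 25 counts in controls, then 89 and 136 after knockdown; the libraries keep this order wherever 4 values are listed. A circle of 396 nt and 3 exons, chr3:138570318-138571356, had 1, 6, 37 and 70 counts. A circle of 1001 nt and 9 exons, chr3:138525490-138572984, had 7, 21, 46 and 74. Each of these circles was higher in both knockdown libraries, and their log2 fold changes were 3.62 ± 0.63, 4.47 ± 0.62 and 2.71 ± 0.46 (SE). Their adjusted p-values in edgeR over all circles were 0.109, 0.0949 and 0.107, and leaving out control replicate 2 gave log2 fold changes of 5.09, 5.87 and 3.40. The first and second of them, and a circle of 470 nt with 3, 5, 29 and 44 counts, share the donor at 138570318, whose 5 circles took 21.4% and 48.6% of CEP70 counts in controls, against 63.6% and 62.5% in knockdowns. Circles that ended at the donor 138525490 took 33.3% and 33.8% in controls, against 25.9% and 24.7% in knockdowns. The back splice of the leading circle could be placed at several positions, since its donor and acceptor sides share the 3 letters AGG.

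AKAP9, a large scaffold that anchors protein kinase A at the centrosome and the Golgi apparatus, had 22.2 and 42.9 counts per 100000 in controls, against 90.2 and 69.6 in knockdowns. The groups did not overlap, and control replicate 2 lay between control replicate 1 and the knockdowns. The log2 fold change was 1.55 ± 0.46 (SE; adjusted p = 0.216 in edgeR), and leaving out control replicate 1 or 2 gave 1.12 or 2.41. PCNT (pericentrin), which builds the scaffold, had 8.26 and 3.23 per 100000 in controls, against 3.18 and 2.56 in knockdowns, and its second control lay next to the knockdowns. CDK5RAP2, which recruits gamma-tubulin complexes, had 22.0, 25.0, 16.3 and 19.5, and CEP85L 5.29, 3.95, 3.18 and 2.05. None of PCNT, CDK5RAP2 and CEP85L had an unadjusted p under 0.05 in edgeR.

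CEP192, the scaffold protein that brings Aurora A and Polo-like kinases to the centrosome, gave 16902 counts, 55.1% of all counts of the 46 genes, in 325 circles. Its summed level was 982 and 1125 per 100000 in controls, against 979 and 828 in knockdowns. Control replicate 1 and knockdown replicate 1 were almost equal. The log2 fold change was 0.07 ± 0.50 (SE, adjusted p = 0.959 in edgeR), and it changed sign, to -0.22, with library-size scaling and, to -0.080, without control replicate 1.

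**Figure D2:**
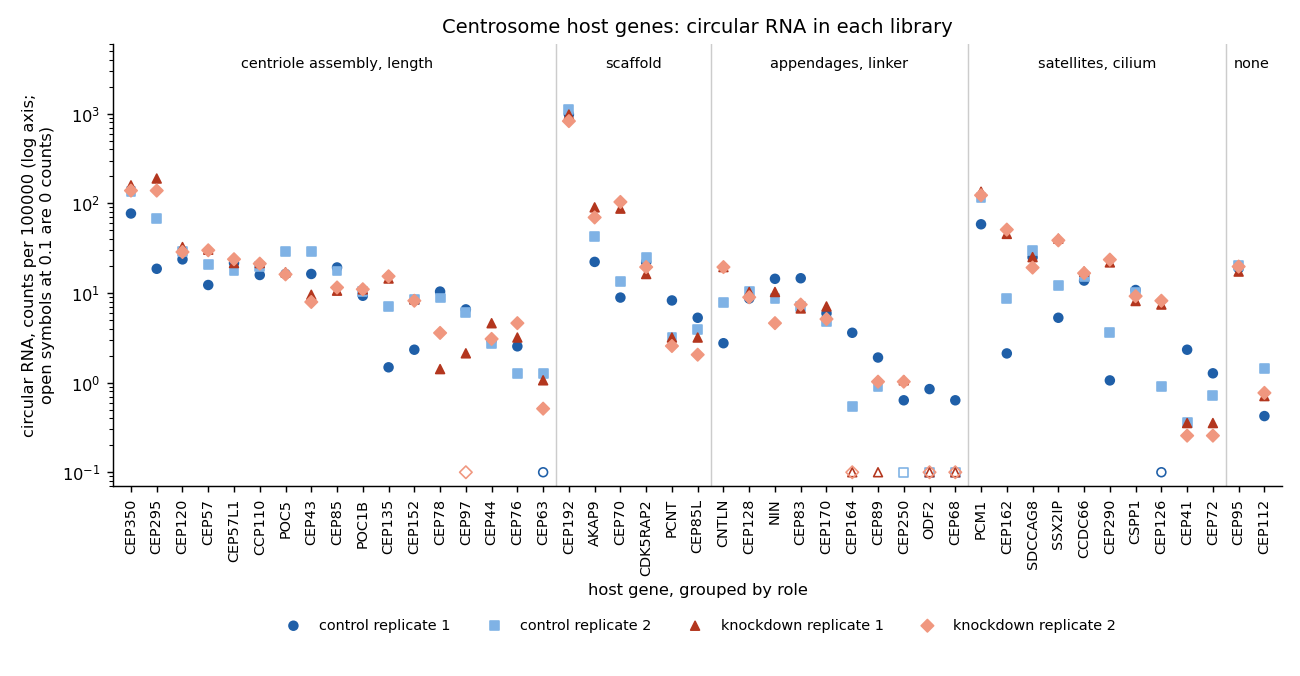
Counts per 100000 counts of the library (log axis) for the 45 host genes with counts, in each of the 4 libraries, grouped by role; open symbols at 0.1 mark libraries with 0 counts. CEP192 lies at 828 to 1125 in every library, while CEP70, CEP162, CEP290 and SSX2IP show both knockdown libraries above both controls.

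The circles of CEP192 did not change alike. The test of unequal circle use compares the changes of the circles within a gene, and CEP192 passed it with 80 circles (edgeR diffSpliceDGE F test, adjusted p = 0.000242). So did AKAP9 with 20 circles (adjusted p = 0.00297), and these were the 2 of 29 centrosome genes tested that passed, against 92 of 2335 genes (3.94%). By the unadjusted p, 10 of the 29 lay below 0.05, against 17.9% of all genes tested. PCM1 had an adjusted p of 0.0701 and CEP57L1 of 0.0983. With no filter on counts CEP192 lost this call, while AKAP9 kept it and PCM1 gained it, and 123 of 7553 genes passed.

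Of the CEP192 counts, 13202 came from 52 circles that share 1 acceptor, at position 12999421 on chromosome 18, which is 8059 nt from the RefSeq start of the gene. This acceptor took 79.0% and 81.2% of CEP192 counts in controls, against 74.1% and 74.4% in knockdowns. The leading circle, of 1538 nt and 10 exons, ran to 13030608 and had 1151, 1465, 522 and 753 counts. The next, of 1054 nt and 8 exons, ran to 13019206 and had 895, 1356, 319 and 456 counts. It took 19.3% and 21.6% of CEP192 counts in controls, against 11.5% and 14.1% in knockdowns, so both knockdown shares lay below both control shares. Its log2 fold change as a single circle was -0.96 ± 0.28 (SE; adjusted p = 0.229 in edgeR).

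Several longer circles from the same acceptor took larger shares in the knockdowns. The circle of 5620 nt and 29 exons, to 13073185, had 204, 246, 196 and 203 counts and took 4.40% and 3.93% of CEP192 counts in controls, against 7.08% and 6.28% in knockdowns. The circle of 6949 nt and 39 exons, to 13117643, took 4.36%, 4.81%, 9.39% and 4.95%, with knockdown replicate 1 alone clearly above the others. The circle of 2071 nt and 14 exons, to 13042334, took 11.04%, 11.06%, 11.5% and 12.8%. Not every long circle took a larger share. A circle of 4675 nt and 28 exons, to 13072845, had 42, 33, 4 and 5 counts and was lower in both knockdown libraries (log2 fold change -2.53 ± 0.58, adjusted p = 0.157 in edgeR). A circle of 1603 nt, to 13037301, had 54, 50, 11 and 13 counts and was lower as well (-1.58 ± 0.46, adjusted p = 0.226 in edgeR).

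**Figure D3:**
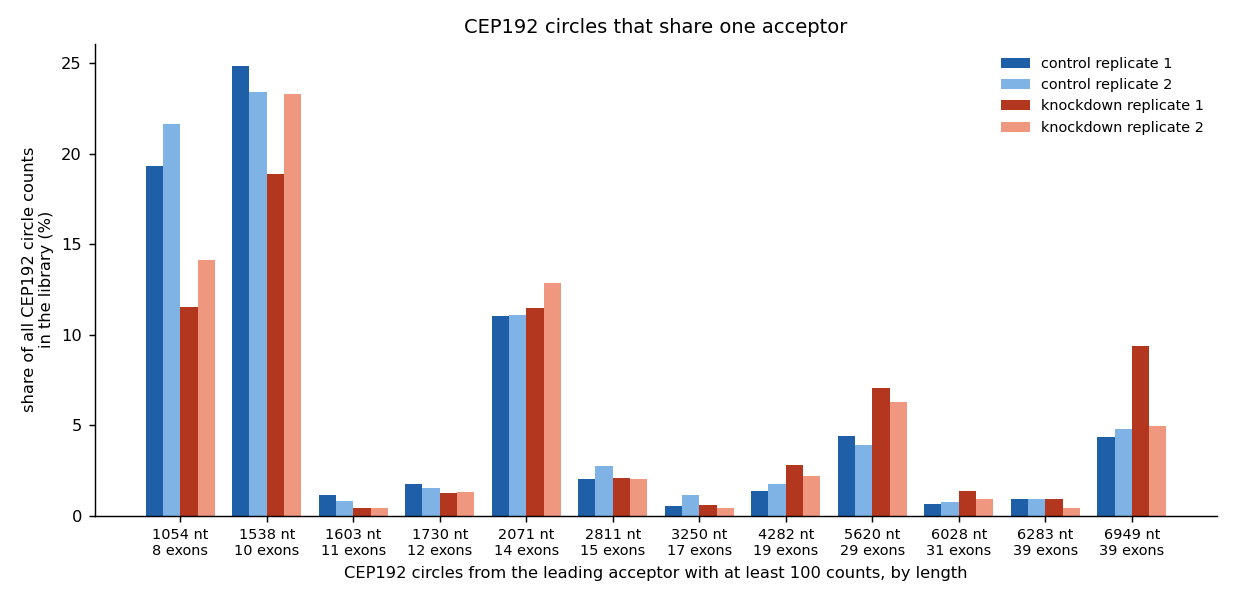
Share of all CEP192 circle counts in the library (%, bars from 0) for circles from the leading acceptor with at least 100 counts, ordered by length, with a bar for each of the 4 libraries. The 8-exon circle stands at 19.3% and 21.6% with the control hairpin and at 11.5% and 14.1% after knockdown, and the 29-exon circle at 4.40% and 3.93% against 7.08% and 6.28%.

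CEP192 circles of up to 2500 nt, a limit chosen after the values were seen, took 70.4% and 70.6% of its counts in controls, against 55.7% and 66.5% in knockdowns. The count-weighted median length was 1538 nt in each control and 2071 nt in each knockdown. Across the 80 circles tested, which share their libraries and mostly their acceptor, Spearman's rho between length and log2 fold change was 0.15. Circles from 2 internal acceptors took larger shares in the knockdowns: those from 13048859 took 5.78%, 4.23%, 8.38% and 8.17%, and those from 13029663 took 2.85%, 2.44%, 5.38% and 4.73%. The most counted of the former, of 2421 nt and 6 exons, to 13059312, had 115, 113, 112 and 131 counts, and the next, of 3549 nt and 15 exons, to 13073185, had 129, 121, 100 and 112. Against totals that were smaller in the knockdown libraries, both were higher per 100000 in both of them. Of the other much counted circles from the leading acceptor, the circle to 13049891 (2811 nt) had 94, 172, 58 and 66 counts and the circle to 13059312 (4282 nt) had 63, 108, 78 and 71, and per 100000 the groups overlapped in both. A circle of 1359 nt and 10 exons, chr18:13059082-13073185, had 14, 12, 1 and 2 counts and was lower in both knockdown libraries (-2.54 ± 0.81, adjusted p = 0.263 in edgeR).

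AKAP9 circles also divided by their acceptor. The 15 circles from 91941100 on chromosome 7, which lies 238 nt from the RefSeq start, had 24, 122, 47 and 49 counts and took 22.9% and 51.0% of AKAP9 counts in controls, against 18.4% and 18.0% in knockdowns. The leading circle from it, to 92003235, was 3318 nt long with 8 exons and had 6, 40, 10 and 20 counts. The back splice of that circle was read with the letters CC-GT and an offset of 5 bases in place of AG-GT, so its exact end is uncertain. Circles from the internal acceptor 91992885 took 3.81% and 6.28% in controls, against 25.1% and 23.5% in knockdowns. The circle of 2913 nt and 4 exons from there to 92003235 had 1, 7, 33 and 33 counts (log2 fold change 3.67 ± 0.66, adjusted p = 0.113 in edgeR), and its log2 fold change was 5.21 without control replicate 2. AKAP9 and CEP192 lost their calls of unequal use without knockdown replicate 1 or 2, where almost no gene in the series passed. Both kept them without control replicate 1 or 2, but there a large part of all genes tested passed. Those kept calls do not single out either gene.

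Of the 10 genes tested among satellite, transition zone and cilium proteins, 6 were higher in both knockdown libraries than in both controls, 3 were lower and SDCCAG8 overlapped, against 15.3% higher and 36.7% lower of all host genes. The median log2 fold change was 0.68, or 1.16 over the 8 genes still tested without control replicate 1. CEP290, which holds the membrane to the axoneme in the transition zone of cilia, had 5 and 20 counts in controls, against 62 and 92 in knockdowns, or 1.06, 3.59, 21.9 and 23.6 per 100000. CEP162, which marks the distal end of centrioles and helps to assemble the transition zone, had 2.12, 8.62, 45.6 and 51.0 per 100000. SSX2IP, a satellite protein that anchors microtubules, had 5.29, 12.2, 40.3 and 38.7 per 100000. In these 3 genes the knockdown libraries lay close together and the controls differed from each other by more than 2-fold. Their log2 fold changes were 3.52 ± 0.58, 3.40 ± 0.63 and 2.43 ± 0.49 (SE), and their adjusted p-values in edgeR were 0.0544, 0.0660 and 0.0854. Without control replicate 1 the log2 fold changes were 2.89, 2.72 and 1.92, and without control replicate 2 they were 4.95, 5.06 and 3.46. CEP126, which takes part in microtubule organization at the centrosome and cilium, had 0, 5, 21 and 32 counts (log2 fold change 4.23 ± 0.93, adjusted p = 0.119 in edgeR). Leaving out control replicate 1 gave 3.32, while leaving out control replicate 2 leaves a control at 0, and the fitted 8.18 is then no bound.

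The leading circle of each of these 4 genes was higher in both knockdown libraries. The CEP290 circle chr12:88111202-88131218, of 1930 nt and 16 exons, had 0 counts in both controls and 13 and 25 in knockdowns. Its observed mean in knockdowns was 9.37-fold the limit of 3 counts in each control library, with the counting error of the knockdowns left out. Its adjusted p in edgeR was 0.0984. Circles that ended at the donor 88096888 of the same gene had 2, 9, 4 and 8 counts and took 40.0% and 45.0% of CEP290 counts in controls, against 6.45% and 8.70% in knockdowns. The CEP162 circle chr6:84185187-84204096, of 1092 nt and 7 exons, had 0, 12, 48 and 94 counts. The SSX2IP circle chr1:84655832-84671308, of 1478 nt and 10 exons, had 5, 53, 93 and 128 counts and held 77.9% of the counts of its gene. The CEP126 circle chr11:101961741-101963880 consists of 1 exon of 2140 nt and had 0, 5, 18 and 28 counts. In each case control replicate 2 lay between control replicate 1 and the knockdowns or, for CEP290, at 0 with it.

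**Figure D4:**
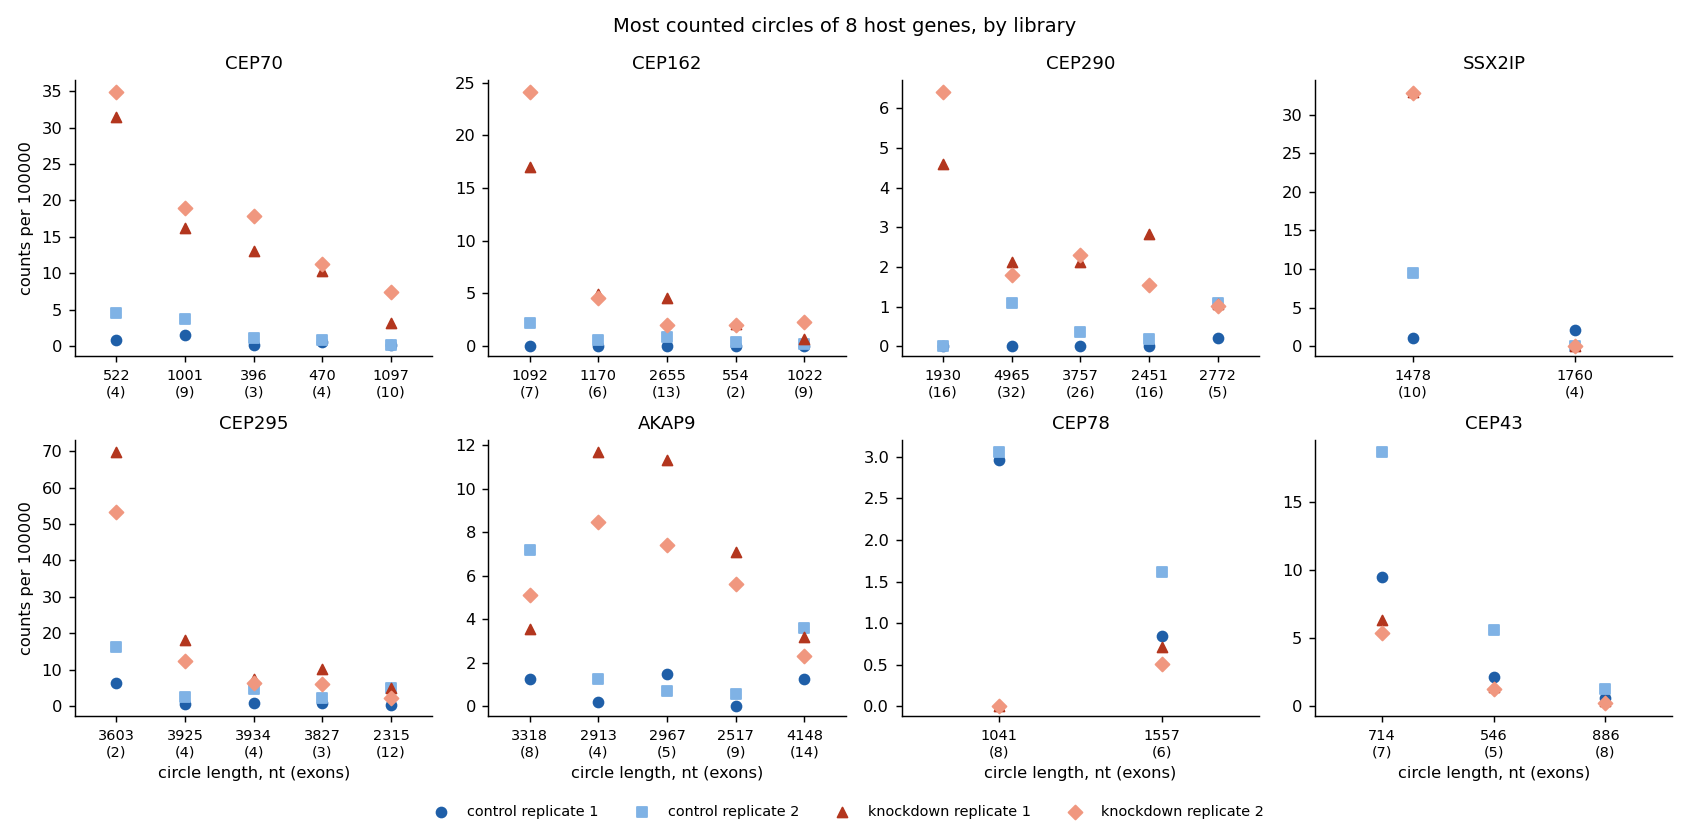
Counts per 100000 of up to 5 of the most counted circles of 8 host genes, in each of the 4 libraries, with each circle's length in nt and its exons in parentheses; the vertical scales differ between panels. In CEP70, CEP162, CEP290, SSX2IP and CEP295 the leftmost circle is higher in both knockdown libraries, and in CEP78 the leftmost circle is at 0 in both.

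PCM1, the protein on which satellites assemble, had 58.4 and 117 counts per 100000 in controls, against 135 and 123 in knockdowns. Control replicate 2 was close to the knockdowns and control replicate 1 was well below them, and the log2 fold change of 0.82 ± 0.47 (SE, adjusted p = 0.466 in edgeR) became 0.38 or 1.71 on leaving out control replicate 1 or 2. Circles that share its donor 17993619 held 42.4% of its counts, in 30 circles. CCDC66, another satellite protein, had 13.8, 15.1, 17.3 and 16.6 per 100000. CEP41, CEP72 and CSPP1 were lower in both knockdown libraries, and the former pair had 15 and 12 counts in all. CSPP1, a protein of the spindle and cilium, had 10.8, 10.2, 8.13 and 9.22 per 100000. Its log2 fold change of 0.04 with TMM was 0.0096 without control replicate 1 and turned negative with library-size scaling.

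Of the 17 genes for centriole assembly and length control, 8 were higher in both knockdown libraries, 4 were lower in both and 5 overlapped. Of all host genes, 15.3% were higher in this way and 36.7% lower. The median log2 fold change of the 17 genes was 0.52, or 0.31 without control replicate 1. CEP295, needed for a new centriole to become a centrosome, had 88, 376, 535 and 542 counts, or 18.6, 67.6, 189 and 139 per 100000. Both knockdowns lay above both controls, but the controls differed by more than 3-fold, and the log2 fold change was 2.16 ± 0.65 (SE, adjusted p = 0.217 in edgeR). Leaving out control replicate 1 gave 1.51, and leaving out control replicate 2 gave 3.70. Its leading circle, chr11:93696320-93700186, of 3603 nt and 2 exons, had 30, 91, 197 and 208 counts. Of the 24 CEP295 circles tested, 22 had a positive log2 fold change, as did 8572 of all 21576 circles tested. The 24 circles share their libraries and in part their ends, so they are not separate observations. CEP135, which builds the cartwheel and wall of the centriole, had 1.48, 7.01, 14.5 and 15.4 per 100000, and CEP57, which takes part in centriole duplication with CEP63, had 12.3, 20.7, 30.4 and 30.0. Both had unadjusted p-values under 0.05 and adjusted p-values of 0.256 and 0.283 in edgeR. Their log2 fold changes, 2.04 and 1.15, were 1.33 and 0.78 without control replicate 1 and 3.87 and 1.87 without control replicate 2.

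CEP350, which stabilizes centrioles, had 77.0, 135, 159 and 139 per 100000, and CEP120, which promotes centriole elongation, had 23.7, 29.3, 32.5 and 28.7. In CEP350 control replicate 2 lay just under the knockdowns, in CEP120 it lay among them, and neither had an unadjusted p under 0.05 in edgeR. CCP110, which caps the distal end of the centriole, had 15.9, 19.9, 21.6 and 21.3, and its partner CEP97 was lower in both knockdown libraries, with 6.56 and 6.11 per 100000 in controls, against 2.12 and 0 in knockdowns. The log2 fold change of CEP97 was -2.39 ± 1.03 (SE, adjusted p = 0.360 in edgeR), over 71 counts. It was -1.27 without knockdown replicate 2, the library at 0, and without knockdown replicate 1 the fitted -7.82 rests on that library and is no bound. The 20 circles of CEP350 that share the acceptor 179986169 took 9.89% and 23.3% of its counts in controls, against 24.9% and 31.2% in knockdowns, and the leading circle among them, chr1:179986169-180006567, of 1256 nt and 7 exons, had 13, 92, 53 and 94 counts. The 5 genes whose groups overlapped were CEP57L1, CEP63, CEP120, CEP152 and POC5, while CEP44, CEP76 and POC1B completed the 8 that were higher.

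CEP78, a protein of the mature centriole, had 10.4 and 8.80 per 100000 in controls, against 1.41 and 3.58 in knockdowns. Both knockdowns were below both controls, and the log2 fold change was -1.56 ± 0.55 (SE, adjusted p = 0.279 in edgeR), or -1.04 without knockdown replicate 1 and -2.44 without knockdown replicate 2. Its leading circle, chr9:78251905-78266703, of 1041 nt and 8 exons, had 14 and 17 counts in controls and 0 in both knockdowns. The observed mean of this circle in controls was 3.29-fold the limit of 3 counts in each knockdown library, with the counting error of the controls left out. All 58 counts of the 8 circles that ended at the donor 78266703 were in controls (22 and 36), while the 6 circles that ended at 78271589 had 7, 13, 4 and 10 counts. CEP43, which with CEP350 anchors microtubules, had 16.3, 28.7, 9.55 and 7.94 per 100000 (log2 fold change -1.10 ± 0.45, adjusted p = 0.333 in edgeR). Without control replicate 2 it was -0.34, and without control replicate 1 it was -1.49. All of its counts were in circles that also name an overlapping gene, ENSG00000272980, so the host cannot be told apart. CEP85 had 19.3, 17.6, 10.6 and 11.5 per 100000, with a log2 fold change of -0.42 ± 0.34 (SE, adjusted p = 0.607 in edgeR).

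Among appendage and linker genes, 8 of 10 were tested, and 2 were higher in both knockdown libraries, 1 was lower and 5 overlapped. Of all host genes, 15.3% were higher in this way and 36.7% lower. The median log2 fold change of the 8 genes was 0.02, or 0.26 over the 5 still tested without control replicate 1. CNTLN (centlein), a part of the linker that joins the centrioles, had 2.75, 7.91, 19.5 and 19.5 per 100000 (log2 fold change 2.11 ± 0.55, adjusted p = 0.172 in edgeR), and leaving out control replicate 1 or 2 gave 1.53 or 3.38. CEP250, the linker protein from which the joining fibres extend, had 10 counts in all. CEP164, the distal appendage protein that docks the membrane of the future cilium, had 17 and 3 counts in controls and 0 in both knockdowns. Control replicate 2, at 0.539 per 100000, lay below the limits that 0 counts allow in the knockdown libraries, so the lower level rests on control replicate 1. Of its 20 counts, 4 were in exon circles, the lowest share of the 45 genes with counts. NIN, CEP83, CEP89, CEP128 and CEP170, which build or bind the appendages, overlapped between groups. CEP95 and CEP112, given no role here, overlapped as well.

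Single circles were tested in the same way. None of 325 centrosome circles passed an adjusted p of 0.05 in edgeR, and none of 21576 circles in the series did (0%), while DESeq2 called 27 of the 325 and 1085 of all circles (5.03%). By the unadjusted p in edgeR, 55 of the 325 were higher (9.29% of all circles were) and 7 were lower (4.26% of all circles). In 118 circles both knockdown libraries lay above both controls, against 23.2% of all circles, and in 55 both lay below, against 22.9%. The smallest adjusted p was 0.0949, for the CEP70 circles of 396 and 470 nt. Most of these circles have few counts in 2 libraries a group, so a change missed by this test was not shown to be absent.

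The other genes of the pathway were read from a list of 45 that are not among the 46, of which 36 were tested. None passed the adjusted threshold in edgeR, while DESeq2 called 1 (2.2% of all host genes) and limma voom 4 (4.81%). By the unadjusted p 7 were higher and 2 were lower, against 7.58% and 6.19% of all host genes. The groups did not overlap in 11 in each direction, against 15.3% higher and 36.7% lower of all host genes, and the median log2 fold change was 0.43. SCLT1, a distal appendage protein, had 2.33, 5.57, 15.9 and 15.9 per 100000 (2.26 ± 0.52, adjusted p = 0.135 in edgeR), with log2 fold changes of 1.74 without control replicate 1 and 3.32 without control replicate 2. PLK4, the kinase that starts centriole duplication, had 0.423, 6.11, 10.96 and 13.3 (2.09 ± 0.87, adjusted p = 0.345 in edgeR), with 1.24 and 5.30 in the same order. TTBK2, a kinase that removes the CCP110 and CEP97 cap, had 19.3, 12.0, 4.95 and 5.89 (-1.18 ± 0.40, adjusted p = 0.273 in edgeR).

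Summed over the 46 genes, the level was 1498 and 1885 per 100000 in controls, against 2091 and 1846 in knockdowns. The groups overlapped, with means of 1692 ± 274 and 1969 ± 173 (SD, n = 2 each), and the ratio of means was 1.16 (exact two-sided permutation test, p = 0.667). Without CEP192 the levels were 516, 760, 1112 and 1019, so the other 45 genes together were higher in both knockdown libraries, with a ratio of 1.67 (exact two-sided permutation test, p = 0.333, the lowest value that 2 libraries against 2 can reach). With all 46 genes and library sizes scaled by TMM, the means were 1540 in controls and 2191 in knockdowns. The ratio was then 1.42 (exact two-sided permutation test, p = 0.333). The count-weighted median length of the centrosome circles was 1539 and 1562 nt in controls, against 2071 and 1610 nt in knockdowns, a difference of means of 290 nt (exact two-sided permutation test, p = 0.333). Without CEP192 the lengths were 1648, 1642, 1870 and 1562 nt and the groups overlapped, with a difference of 71.0 nt (exact two-sided permutation test, p = 1). In the whole series the lengths were 1363, 1255, 1381 and 1279 nt. Of the 1875 centrosome circles, 848 had counts in a single library and 265 had counts in each of the 4. The median gene had 24 circles, and in the 36 genes with at least 40 counts the leading circle held a median of 23.4% of the counts.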

How the data were processed

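Circular RNA was measured in 4 libraries (2 control, 2 HNRNPL knockdown). The authors deposited raw read counts per back splice, called with CIRI-long per the file's columns, with the circle length in nt, exons, type and named genes. The submitters' processing notes name GRCh38.p14 and DESeq2; aligner and filters are not given in the sources used here. A second deposited table, named CPM but summing to 100000 per library, was not used.

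Counts of non-antisense circles were summed to every gene a row names. Features with at least 10 counts were tested with edgeR 4.0.16 (R 4.3.3): TMM with the library total as size, quasi-likelihood F test with the default dispersion method, Benjamini-Hochberg over all features, threshold 0.05. Unequal circle use was tested with diffSpliceDGE. Standard errors were derived from F. Values per library were compared by exact permutation. Alternatives were library-size scaling, DESeq2 1.42.0, limma voom 3.58.1, other filters, the newer dispersion method, a replicate block, and leaving out each library, circles of several genes or intron circles; sums and lengths without CEP192 were added after the data were seen.

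Members and lists were chosen with earlier results of these data known. Named are genes past the threshold, the 8 with the highest mean level, the 5 higher and 5 lower with the smallest p, the 10 most counted circles and 5 higher and 5 lower circles by p, and genes called for circle use; other members were named to account for the lists. The fit was tested on simulated data. The host gene test recovered 0 of 50 changes of 2-fold, 13 of 50 of 4-fold and 39 of 50 of 8-fold. The circle test recovered 1 of 50 changes of 8-fold. With 1 circle changed 8-fold in each of 200 genes, the test of unequal circle use called 82 changed genes (42.5% of those tested) and 10 unchanged genes. Each simulation used 1 dispersion for all features and both groups, while in the data the controls differed more than the knockdowns. Reads carry no molecular identifiers, so floors cover counting error only, and the design text calls the libraries biological replicates without stating separate cultures, so p-values measure the spread between these libraries.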

Additional observations from a re-analysis of the deposited data

How the results depend on the processing

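Some calls depended on the processing. The number of centrosome host genes past the adjusted threshold, 1 as reported, became 2 (library-size scaling), 7 (DESeq2), 9 (no filter), 4 (a stricter filter, 5 counts in each of 2 libraries), 0 (the newer edgeR dispersion, 13 below an unadjusted p of 0.05), 9 (limma voom), 4 (circles that name 1 gene) and 2 (exon circles alone). Over all host genes 37 became 55, 184, 369, 116, 0, 403, 88 and 81 in the same order. Leaving out 1 library gave 0 to 21 genes: 16 without control replicate 1, 21 without control replicate 2 and 0 without either knockdown replicate, where 1672, 2775, 0 and 0 of all host genes passed. The fits with 1 control assume that it varies like the knockdowns. Single circles went from 0 to 27 (DESeq2), 14 (no filter), 39 (stricter filter), 10 (voom) and 9 (exon circles alone), where 1085, 471, 1422, 296 and 302 of all circles passed, and to between 0 and 104 on leaving out 1 library. Unequal circle use went from 2 genes to 6 with the stricter filter and to between 0 and 13 on leaving out 1 library, and with no filter it was called for AKAP9 and PCM1 and lost for CEP192. With the stricter filter, 305 of all 1484 genes tested for circle use passed, so the rise to 6 was not confined to centrosome genes. Without control replicate 1 or 2, a large part of all circles and of all genes tested for circle use passed. The upper ends of those ranges therefore do not single out centrosome genes. The median log2 fold change of 0.46 moved to 0.17 (library-size scaling), 0.49 (DESeq2), 0.39 (no filter), 0.51 (stricter filter), 0.54 (circles that name 1 gene) and 0.61 (exon circles alone), and to between 0.30 and 0.76 on leaving out 1 library. Over all host genes the median of -0.26 became -0.58 (library-size scaling), -0.24 (DESeq2), -0.57 (no filter), -0.12 (stricter filter), -0.26 (circles that name 1 gene) and -0.15 (exon circles alone). On leaving out 1 library it ranged from -0.29 (without knockdown replicate 2) to 0.018 (without control replicate 1). CEP192 turned from 0.07 to -0.22 with library-size scaling and ranged from -0.080 (without control replicate 1) to 0.45 on leaving out 1 library. Of 204 values of the 16 genes named by rule, 146 kept direction and side of the threshold, 53 gained the threshold, 3 (CEP70) lost it and 2 (CEP192) turned. The summed level and the circle length kept their direction, with ratios of 1.04 to 1.31 and differences of 59.5 to 520.5 nt on leaving out 1 library. With TMM-scaled library sizes the ratio of the summed level was 1.42, against 1.16 as reported. The cause was not tested.

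The groups share replicate numbers, but deviations of same-numbered libraries from their group means correlated at 0.0706 over 4944 circles, 0.0798 over 4764 host genes and 0.108 over the 36 centrosome genes with at least 40 counts. The labels give no shared source and there are 2 pairs, so the numbers were treated as names. With the replicate number as a block, edgeR called 9 centrosome host genes (300 of 8379 in the series), 34 circles (1620 of 21576) and 12 genes for circle use (536 of 2335), and the median was 0.48. With 2 libraries a group, depth limits most single circles: 848 of 1875 had counts in 1 library.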

Other observations

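Circles typed as antisense that lie at the loci of the centrosome genes numbered 82 and entered no comparison. They had 26.9 and 5.93 counts per 100000 in control replicates 1 and 2, and 12.4 and 10.2 in the knockdown replicates, so the groups overlapped and control replicate 1 was the highest.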
